A study of Mus musculus with 2 samples.

Results

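The genes described here encode the Rab GTPases of mouse, the largest branch of the Ras superfamily. They were chosen by name: every probe set annotated with exactly 1 gene symbol made of "Rab", a number and an optional letter was taken. This gave 59 genes on 132 probe sets, of 18193 genes with a single-gene probe set on the array. The samples were 2 cultures of mouse mammary carcinoma cells, with 1 array for each. The 4T1-3R liver metastatic cells, written 4T1-3R_L, came, per the labels, from metastatic cells of the liver in an in vivo experiment, and were then cultured. The 4T1 parental cells are the mouse mammary carcinoma line that gives the series its name, and both cultures carry the source label of mammary carcinoma. The labels give no agent, allele or time for either population, and they do not say whether 4T1-3R_L is 1 clone or a pool. With 1 array in each group no test was possible, and each value describes these 2 arrays.

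A Rab is a molecular switch that is active with GTP bound and inactive with GDP bound, and each one marks a particular membrane compartment. Active Rabs recruit effectors, such as motors, tethers and coat adaptors, which carry vesicles along 1 route of the cell. Exchange factors load GTP, GTPase-activating proteins (GAPs) speed its hydrolysis, and escort proteins and GDP dissociation inhibitors (GDIs) handle the prenylated protein between membranes. In mammary and other polarised epithelia, Rab8, Rab10, Rab11, Rab13, Rab17 and Rab25 direct proteins to the apical, basolateral or junctional surface.

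Both arrays carried MAS5 signals on a linear scale. Any signal under 90.6, the median over both arrays together, was raised to that value (the floor) ahead of the log2 step, because detection calls were not used here. A gene counted as measured where its brightest probe set was at or above the floor on 1 array or both. Of the 59 Rab genes 48 were measured, 45 of them on both arrays. Of all genes 11135 were measured. The log2 ratio is 4T1-3R_L over parental, and each ratio is taken between the 2 signals of 1 probe set. Sums over marker lists are compared between the arrays only.

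The Rab family as a whole lay near the centre of the arrays, with a few members far from it. In 4T1-3R_L cells 4 of the 48 measured Rab genes, Rab6b, Rab17, Rab7b and Rab31, were higher by 2-fold or more. Another 2, Rab25 and Rab32, were lower by that much. The background over all measured genes was 6.23% for the higher side, 4.48% for the lower side and 10.7% for either. The corresponding Rab shares, 8.33% and 4.17%, lay close to that background. The median log2 ratio was -0.06 over the Rab genes and -0.01 over all measured genes, and 62.5% of Rab genes against 63.2% of all genes lay within 0.5 of 0. Between 2-fold and that line lay 12 further Rab genes, 8 higher and 4 lower. Log2 ratios were negative for 52.1% of measured Rab genes and 50.5% of all measured genes. The counts of signs by route below stand beside these shares and come from few genes each.

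The balance of higher and lower Rab genes depends on how the arrays are scaled. The 15 hybridisation control probe sets above the floor, which read cRNAs that the standard procedure adds in fixed amounts, were all brighter on the 4T1-3R_L array, by a mean log2 ratio of 0.56. Scaling to them gave 1 Rab gene at least 2-fold higher, Rab6b, and 7 lower, with medians of -0.54 for Rab genes and -0.52 for all genes. Groups are therefore described relative to the median gene.

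**Figure D1:**
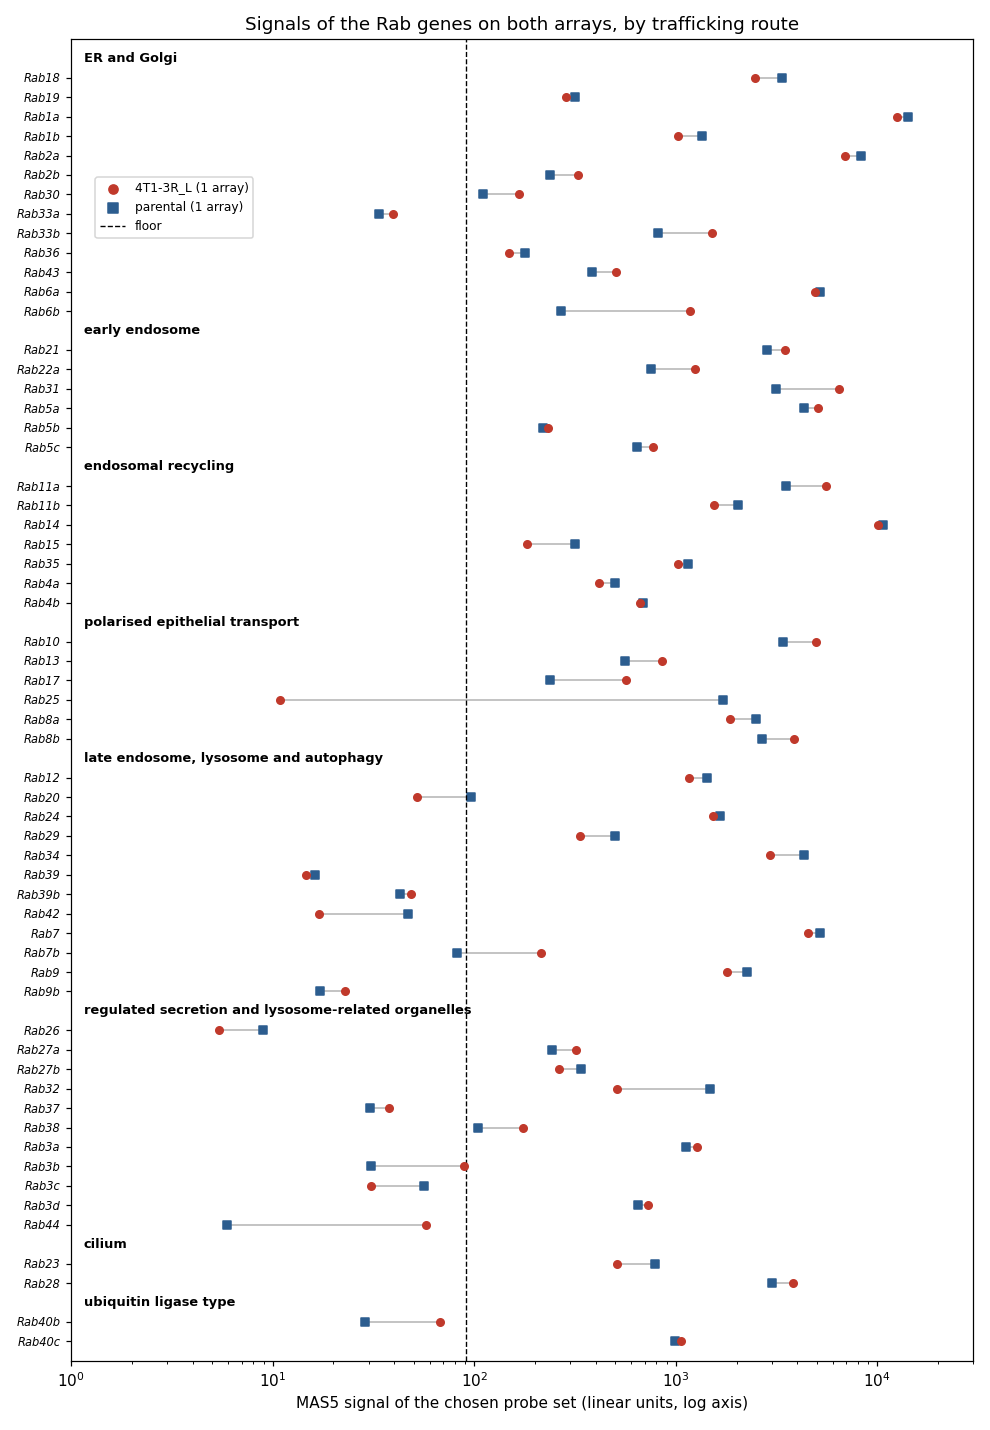
MAS5 signal (log axis) of the chosen probe set of each of the 59 Rab genes, grouped by trafficking route, with 4T1-3R_L as circles, parental as squares and the floor of 90.6 as a dashed line. Signals are comparable within a row only. The widest gap is that of Rab25, with 10.8 in 4T1-3R_L cells and 1711 in parental cells.

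The 300 bases around the start sites of 4 of the 6 genes at least 2-fold apart are given first, because the proteins' own sequences were not used here. They are RefSeq promoter windows of GRCm38.p6, from 250 bases before the start to 50 after it, on the gene's strand. Capitals mark 2 motifs searched on both strands. The E2-box, CACCTG or CAGGTG, is the letter pattern recognised by the Zeb and Snail repressors, and the hypoxia response core is ACGTG or GCGTG, read on the other strand as CACGT or CACGC. In CACGTG the forward and reverse cores overlap. Rab25, the lowest member, lies at chr3:88548230-88548529 on the minus strand.
Rab25: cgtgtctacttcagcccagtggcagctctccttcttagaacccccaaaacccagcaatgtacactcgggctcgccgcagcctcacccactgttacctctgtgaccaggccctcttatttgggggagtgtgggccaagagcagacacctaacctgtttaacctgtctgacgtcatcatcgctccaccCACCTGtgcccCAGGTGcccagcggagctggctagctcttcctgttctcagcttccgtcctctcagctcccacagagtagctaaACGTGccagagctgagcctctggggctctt
Rab17, its counterpart in epithelial sorting and one of the higher genes, lies at chr1:90967618-90967917 on the minus strand.
Rab17: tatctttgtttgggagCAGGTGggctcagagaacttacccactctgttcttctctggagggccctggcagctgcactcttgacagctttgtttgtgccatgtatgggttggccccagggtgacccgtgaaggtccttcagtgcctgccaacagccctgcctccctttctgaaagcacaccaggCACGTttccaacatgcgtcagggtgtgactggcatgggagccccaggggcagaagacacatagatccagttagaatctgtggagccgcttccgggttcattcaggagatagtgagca
Rab6b, the highest member, lies at chr9:103111824-103112123 on the plus strand.
Rab6b: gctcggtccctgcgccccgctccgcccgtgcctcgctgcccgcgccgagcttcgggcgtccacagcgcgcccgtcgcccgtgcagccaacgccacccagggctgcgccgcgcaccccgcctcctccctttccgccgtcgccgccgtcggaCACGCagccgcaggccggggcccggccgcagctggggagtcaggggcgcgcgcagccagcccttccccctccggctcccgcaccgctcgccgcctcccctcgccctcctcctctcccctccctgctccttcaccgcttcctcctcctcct
Rab32, the other lower member, lies at chr10:10558158-10558457 on the minus strand.
Rab32: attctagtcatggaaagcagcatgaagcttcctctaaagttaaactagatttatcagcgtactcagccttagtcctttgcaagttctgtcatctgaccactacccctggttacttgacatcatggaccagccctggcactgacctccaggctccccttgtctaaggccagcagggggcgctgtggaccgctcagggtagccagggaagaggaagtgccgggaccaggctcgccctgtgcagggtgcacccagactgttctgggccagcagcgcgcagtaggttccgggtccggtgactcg

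The Rab25 window held 2 E2-boxes, which begin 64 and 53 bases before the start site. The Rab17 window held 1 and the windows of Rab6b, Rab32 and Rab31 held 0. Of all 32851 RefSeq windows of this length 20.2% held at least 1 E2-box and 2.88% held 2 or more. Windows were found for 48 of the 59 Rab genes, 60 windows in all, and 10 of these held an E2-box, 2 of them with 2 copies. The other window with 2 copies was 1 of the 2 windows of Rab23. Genes whose windows held an E2-box had log2 ratios on both sides of 0. The hypoxia core occurred once each in the windows of Rab25, Rab17, Rab6b and Rab31 and not in that of Rab32, against 43.8% of all windows and 30 of the 60 Rab windows. The Rab6b window was the richest of these in CpG, with 42 CpG and 78.7% G and C, where the Rab25 window had 9 CpG and 58.3%. The medians were 19.5 CpG and 61.2% over the Rab windows and 7 CpG and 52.7% over all windows. A match of letters is a description of the window only.

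Rabs of polarised epithelial transport lay on both sides of 0, and only 1 of the 6 lay within 0.5 of 0. Rab25 is an epithelial member of the Rab11 subfamily that works at the apical recycling endosome. It had a signal of 10.8 in 4T1-3R_L cells and 1711 in parental cells. This signal was below the floor in 4T1-3R_L cells, so the gene was at least 18.9-fold lower there (log2 ratio -4.24 at the floor). The bound moves with the floor, from 10.1-fold at the 60th percentile of signals to 30.3-fold at the 40th. It has 1 probe set on the array, so no second one checks it. Rab17, an epithelial Rab of apical recycling and transcytosis, had 566 in 4T1-3R_L cells and 238 in parental cells, 2.38-fold higher (log2 ratio 1.25). Its second probe set lay under the floor on both arrays, and under the control scaling its log2 ratio was 0.70.

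Rab13, which acts at tight junctions, had 858 in 4T1-3R_L cells and 561 in parental cells, a log2 ratio of 0.61. Rab10, a Rab of basolateral delivery and exocytosis, had 4943 and 3410 in the same order, with log2 ratios of 0.54, 0.50 and -0.01 on its 3 probe sets. Rab8b (3867 in 4T1-3R_L cells, 2689 in parental cells) had 0.52 and its paralogue Rab8a (1864 and 2509) had -0.43. Both carry cargo from the Golgi to the surface and to the cilium. The median of the route exceeded the all-gene median by 0.54, and lay between 0.32 and 0.55 above it under the alternatives. The median itself was -0.03 under the control scaling.

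Markers of carcinoma epithelium were apart in the same cells. Of 12 such markers 11 were measured, and 6 of them (Krt14, Epcam, Cldn3, Cldn4, Cldn7 and Esrp1) were lower by 2-fold or more in 4T1-3R_L cells, with 0 higher. Summed over the list the signal was 57475 in 4T1-3R_L cells and 91596 in parental cells. The simple keratins had log2 ratios of 0.22 (Krt8), -0.20 (Krt18) and -0.76 (Krt19). The cadherin Cdh1 had -0.99 and the epithelial transcription factor Grhl2 had -0.53. Of 11 hepatocyte markers on the array, albumin included, 0 were measured, with summed signals of 260 in 4T1-3R_L cells and 365 in parental cells. Of 12 fibroblast and stellate cell markers 4 were measured, with sums of 17019 in 4T1-3R_L cells and 2905 in parental cells. Pcolce (13959 in 4T1-3R_L cells, 1590 in parental cells) and Pdgfra (2549 in 4T1-3R_L cells, 676 in parental cells) were higher by 2-fold or more. Acta2 (158.9 in 4T1-3R_L cells, 205.3 in parental cells) was lower, with a log2 ratio of -0.37. Des (15.9 in 4T1-3R_L cells, 106.4 in parental cells) was also lower, with a bound of -0.23. Col1a1, Col1a2 and Col3a1 were under the floor on both arrays. Of 12 macrophage and leukocyte markers 3 were measured, with sums of 1211 in 4T1-3R_L cells and 2436 in parental cells. Csf1r had 88.1 in 4T1-3R_L cells and 1026 in parental cells, and Ptprc was under the floor on both arrays. Of 12 endothelial markers 3 were measured, with sums of 1983 in 4T1-3R_L cells and 1800 in parental cells, and neither array reached the floor for Pecam1 or Cdh5. The part of these 5 marker lists in the Rab results was not tested.

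**Figure D2:**
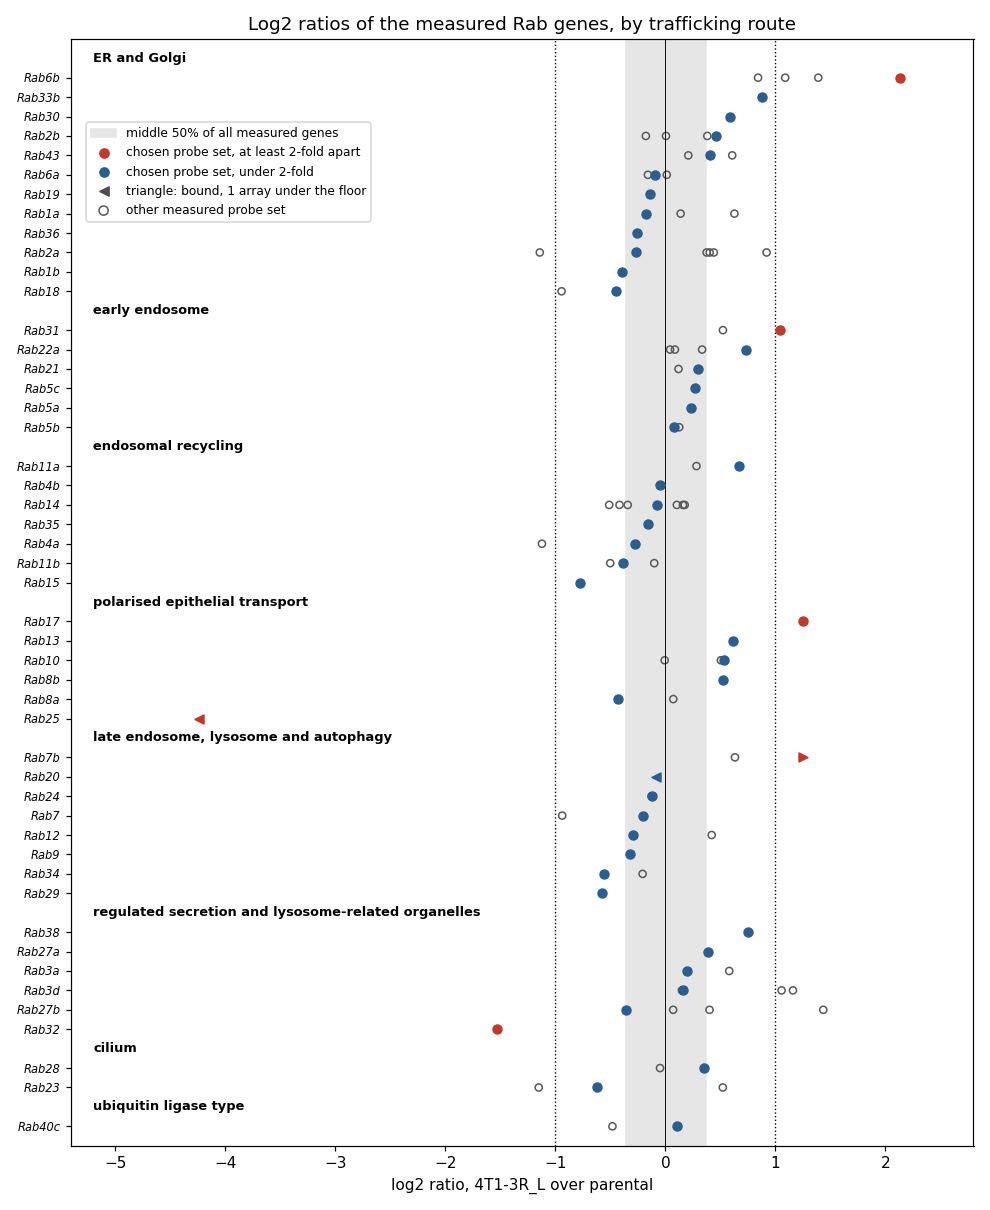
Log2 ratio (4T1-3R_L over parental) of the 48 measured Rab genes by route. Filled symbols are the chosen probe sets, triangles are bounds with 1 array under the floor, and open circles are other measured probe sets of the same gene. The grey band is the middle 50% of all measured genes and dotted lines mark 2-fold. Rab25 and Rab32 lie beyond 2-fold on the lower side, and Rab6b, Rab17, Rab7b and Rab31 on the higher side.

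Rab genes of endosomal recycling lay mostly below the median gene. Rab11a, the broadly expressed relative of Rab25 at the recycling endosome, had 5575 in 4T1-3R_L cells and 3514 in parental cells, a log2 ratio of 0.67, with 0.28 on the other probe set. Rab11b had 1549 in 4T1-3R_L cells and 2025 in parental cells (log2 ratio -0.39, and -0.50 and -0.10 on its other probe sets). The 3 members of this subfamily therefore lay 4.91 apart on the log2 scale between Rab11a and the floor value of Rab25. Rab15, which slows endocytic recycling, had 183 in 4T1-3R_L cells and 314 in parental cells, a log2 ratio of -0.78.

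Rab4a, a Rab of rapid recycling, had 413 in 4T1-3R_L cells and 500.0 in parental cells, a log2 ratio of -0.28. Its second probe set gave -1.12, at least 2-fold lower, so its probe sets differ on the call. Rab4b was nearest to 0 (664 in 4T1-3R_L cells, 689 in parental cells, log2 ratio -0.05). Rab14 had -0.08 on its brightest probe set and -0.51 to 0.17 on the other 6, and Rab35 had -0.16. Of the 7 recycling genes 6 had negative log2 ratios, and the route's median lay at -0.16 relative to all genes, and from -0.36 to -0.07 under the alternatives.

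All 6 Rabs of the early endosome had positive log2 ratios, from 0.08 to 1.04. Rab31, which carries cargo from the trans-Golgi network to endosomes, had 6468 in 4T1-3R_L cells and 3144 in parental cells, 2.06-fold higher. It stands just past 2-fold: the other probe set gave 0.52, and the control scaling gave 0.48. Its close relative Rab22a, which works between early and recycling endosomes, had 1246 in 4T1-3R_L cells and 752 in parental cells. Its log2 ratio was 0.73, but 0.04 to 0.33 on its other 3 probe sets, and the chosen probe set is of the _s_at type, which can bind transcripts of related sequence. Rab21, an integrin-binding Rab, had 0.29. The Rab5 trio, which drives fusion of early endosomes, had 0.27 for Rab5c, 0.23 for Rab5a and 0.08 for Rab5b. Rab5b was nearest to 0, with 232 in 4T1-3R_L cells and 220 in parental cells. The route's median lay 0.29 above that of all genes, and 0.21 to 0.32 above it under the alternatives. Under the control scaling 4 of these 6 log2 ratios were negative and the median was -0.28.

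Among Rabs of the late endosome, lysosome and autophagy, 7 of 8 measured genes had negative log2 ratios and 1 was at least 2-fold higher. Rab7b, which in human cells returns proteins from late endosomes to the trans-Golgi network, had 215 in 4T1-3R_L cells and 82.1 in parental cells, where it was under the floor. It was at least 2.38-fold higher (log2 ratio 1.25 at the floor). Its second probe set, also under the floor in parental cells, gave a bound of 0.63 and a floor at the 60th percentile gave 0.35, so the call rests on a weak signal. Rab7, the main Rab of late endosomes and lysosomes, had 4522 in 4T1-3R_L cells and 5214 in parental cells. Its log2 ratio was -0.21 there and -0.94 on the other probe set.

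Rab29, which recruits the kinase Lrrk2 to membranes, had 336 in 4T1-3R_L cells and 501 in parental cells, a log2 ratio of -0.58. Rab34, which acts in lysosome positioning and cilium formation, had 2920 in 4T1-3R_L cells and 4311 in parental cells, a log2 ratio of -0.56, with -0.21 on the other probe set. Rab9 (-0.32), Rab12 (-0.30, and 0.42 on the other probe set) and Rab24 (-0.12) completed the genes measured on both arrays. Rab20 was barely measured, with 51.7 in 4T1-3R_L cells and 95.9 in parental cells, so its bound of -0.08 says little. Neither array reached the floor for Rab39, Rab39b, Rab42 or Rab9b. The median lay at -0.24 relative to all genes, and from -0.31 to -0.13 under the alternatives.

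Regulated secretion and lysosome-related organelles held the other lower gene. Rab32, which acts in melanosome biogenesis and at mitochondria, had 509 in 4T1-3R_L cells and 1472 in parental cells, 2.90-fold lower (log2 ratio -1.53). It has 1 probe set, and it stayed at least 2-fold lower under all 11 alternatives, from -2.09 to -1.46. Neither the 3 ways of choosing probe sets nor the other floors could move its ratio. Its paralogue Rab38, which shares its melanosomal role and its exchange factor, had 174.5 in 4T1-3R_L cells and 104.0 in parental cells, a log2 ratio of 0.75. That probe set is of the _x_at type, which can bind unrelated transcripts, and the second one lay under the floor on both arrays. Hps1 and Hps4, the subunits of the exchange factor BLOC-3 of both Rabs, had log2 ratios of 0.15 and 0.58. The value of Hps1 also came from an _x_at probe set, and its second probe set gave -0.92, so its direction differs between probe sets. Both subunits were picked with their values already known.

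Rab3d, a Rab of secretory granules, had 728 in 4T1-3R_L cells and 652 in parental cells on its brightest probe set, a log2 ratio of 0.16. The other 3 probe sets gave 0.15 to 1.16, with 2 of them at least 2-fold higher. Rab27b, which acts in granule and exosome release, had 263 in 4T1-3R_L cells and 337 in parental cells, a log2 ratio of -0.36. Its other probe sets, each under the floor or close to it in parental cells, gave 0.07, 0.40 and 1.43, so even its direction differs between probe sets. Rab27a had 0.38 and Rab3a 0.19. Rab26, Rab37, Rab3b, Rab3c and Rab44, most of them known from neurons, glands or blood cells, were under the floor on both arrays.

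Rabs of the endoplasmic reticulum and Golgi held the highest ratio of the family. Rab6b, a paralogue of Rab6a best known from neurons and active in Golgi transport, had 1177 in 4T1-3R_L cells and 268 in parental cells, 4.39-fold higher (log2 ratio 2.14). Its other 3 probe sets were all brighter in 4T1-3R_L cells, with log2 ratios of 1.09, 0.84 and 1.39, and it stayed at least 2-fold higher under all 11 alternatives (1.09 to 2.20). Rab6a, the general Golgi Rab, was nearest to 0, with 4885 in 4T1-3R_L cells and 5208 in parental cells (log2 ratio -0.09, and -0.16 and 0.01 on the others). The pair lay 2.23 apart.

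Rab33b, a medial Golgi Rab also linked to autophagosome formation, had 1506 in 4T1-3R_L cells and 817 in parental cells, a log2 ratio of 0.88. Rab30, another Golgi Rab, had 166 in 4T1-3R_L cells and 111 in parental cells, a log2 ratio of 0.59. Rab1a, which controls transport from the endoplasmic reticulum to the Golgi, had 12527 in 4T1-3R_L cells and 14142 in parental cells. Its log2 ratio was -0.17, and 0.14 and 0.63 on its dimmer probe sets. Rab2a, of the same step, had 6914 in 4T1-3R_L cells and 8331 in parental cells, a log2 ratio of -0.27. Its other 5 measured probe sets, from brightest to dimmest, gave 0.37, 0.40, 0.92, 0.44 and -1.14. The median over its probe sets was 0.39, opposite in sign to the chosen one. The remaining genes were Rab18 (-0.45), Rab1b (-0.39), Rab36 (-0.26), Rab19 (-0.14), Rab43 (0.41) and Rab2b (0.46), and neither array reached the floor for Rab33a. The route's median lay at -0.11 relative to all genes, and at 0.21 with the second probe sets. In that setting genes with 1 probe set kept it.

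The cilium and the ubiquitin ligase type complete the family. Rab23, which restrains Hedgehog signalling in the mouse, had 509 in 4T1-3R_L cells and 785 in parental cells, a log2 ratio of -0.63. Its other probe sets gave 0.52 and -1.15. Rab28, another ciliary Rab, had 3813 in 4T1-3R_L cells and 2994 in parental cells, a log2 ratio of 0.35, with -0.05 on the other probe set. Rab40c, a Rab with a SOCS box that joins a ubiquitin ligase, had 1063 in 4T1-3R_L cells and 985 in parental cells, a log2 ratio of 0.11, with -0.48 on the other probe set. Rab40b was under the floor on both arrays.

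Probe sets of the same gene often differed by as much as the ratios themselves. Of the 28 measured Rab genes with another measured probe set, the second one had the same sign in 19 (67.9%), against 69.9% of 5377 genes over the array. The median size of the difference between first and second probe set was 0.45 for Rab genes and 0.35 for all genes on the log2 scale. The other 20 measured Rab genes, Rab25, Rab32 and Rab17 among them, had no such check. Of the 4 higher genes, Rab6b alone was at least 2-fold higher on its second probe set, which is of the _s_at type.

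**Figure D3:**
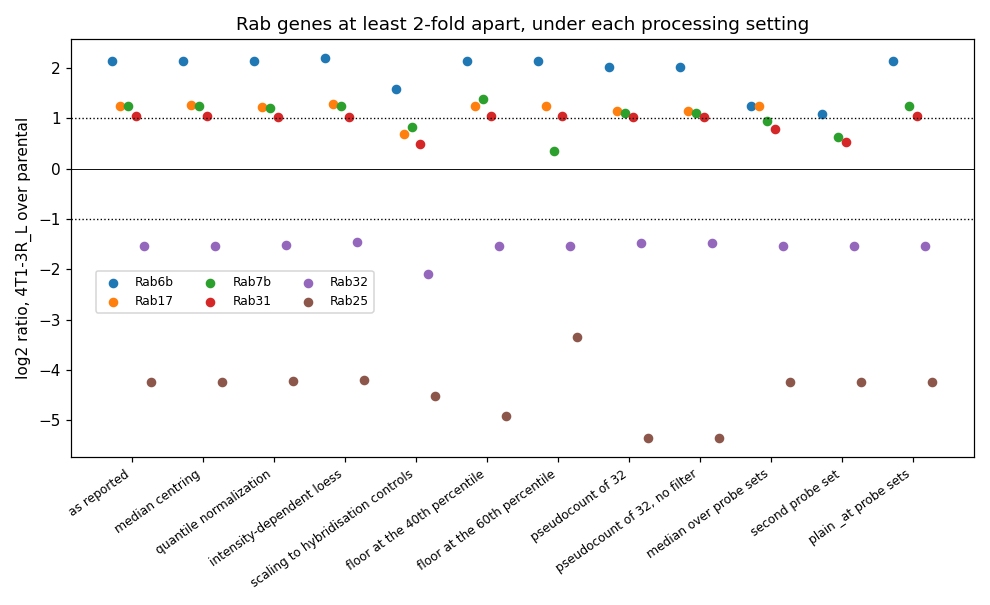
Log2 ratio (4T1-3R_L over parental) of the 6 Rab genes at least 2-fold apart, as reported and under each of 11 alternative settings. Dotted lines mark 2-fold. Rab6b, Rab32 and Rab25 stay beyond 2-fold in every setting, while Rab17, Rab7b and Rab31 come within it in some or are not measured. Rab25 and Rab32 have 1 probe set each, so the settings that choose probe sets cannot move them.

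Paralogues were set side by side by their ratios. Among 12 groups of close relatives with 2 or more measured members, by their brightest probe sets, the widest gaps were those of the Rab11 subfamily (4.91), Rab32 and Rab38 (2.28), Rab6a and Rab6b (2.23) and Rab7 and Rab7b (1.45). Rab8a and Rab8b lay 0.95 apart, while the Rab3, Rab5, Rab1 and Rab4 groups lay within 0.03 to 0.22.

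The genes next to the 6 were looked up in the RefSeq order of GRCm38.p6, taking the 3 nearest measured protein-coding genes on each side. Around Rab25 they had log2 ratios from -0.70 to 0.97, and 0 of 6 were at least 2-fold apart. The same count was 0 around Rab32, Rab31 and Rab7b. It was 1 around Rab6b (Slco2a1, a prostaglandin transporter, 1.29) and 1 around Rab17 (Ramp1, a receptor subunit, 1.83). Over all measured genes 10.7% were at least 2-fold apart, and counts among 6 genes are too small to set apart from that share. Rab29, itself a member, is the second measured gene beyond Rab7b.

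Genes that load, unload, switch and read Rabs lay mostly within 2-fold, as did all measured genes. Of 149 such genes on the array 132 were measured, with 4 higher and 4 lower by 2-fold or more. This is 3.03% each way, beside 6.23% and 4.48% of all measured genes. Counts of 4 are too small to set apart from those shares, and the control scaling gave 1 higher and 21 lower. The median log2 ratio was 0.08, against -0.01 over all genes. The lists were written from general knowledge, and Pdcl3 and Evc2 on them are not established Rab partners.

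The list of chaperones and prenylation lay lowest, with 7 of 8 measured genes negative, against 50.5% of all measured genes. Its median was -0.38 relative to all genes, though 0 were 2-fold apart. The escort proteins Chml and Chm, which present new Rabs for prenylation, had log2 ratios of -0.87 (340.2 in 4T1-3R_L cells, 620.4 in parental cells) and -0.71 (893 and 1460). The subunits of the prenylating enzyme differed: Rabggta had 0.64 (798 in 4T1-3R_L cells, 513 in parental cells) and Rabggtb -0.50. Gdi2, a GDP dissociation inhibitor, had -0.03, with 0.11 on its second probe set. Rabif had -0.56, with 0.35 on its second probe set, while the second probe set of Chm gave -0.45. The negative genes also include Pdcl3 (-0.11), which is not an established Rab partner.

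Among 44 measured exchange factors, by their brightest probe sets, 0 were at least 2-fold higher and 1 was lower. This was Dennd2d, a DENN domain protein, with 209 in 4T1-3R_L cells and 420 in parental cells (log2 ratio -1.01, or -1.05 by the other probe set). Mon1b, part of the factor that activates Rab7, had -0.95 but 0.99 on its second probe set. Sh3bp5 had -0.22 but -1.60 on its second probe set, so its probe sets differ on the call. Trappc6a, a subunit of the TRAPP complexes that act on Rab1, had 0.92 (1540 in 4T1-3R_L cells, 816.5 in parental cells).

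Among 35 measured GAPs of the TBC type and their relatives, 2 were at least 2-fold higher and 1 lower. Tbc1d24, a TBC protein known from synapses, had 427 in 4T1-3R_L cells and 137 in parental cells, 3.13-fold higher, and 0.87 in log2 terms by the other probe set. Tbc1d8b, a TBC protein linked to Rab11, had 2029 in 4T1-3R_L cells and 993 in parental cells, 2.04-fold higher. Tbc1d31, a centrosomal TBC protein, had 748 in 4T1-3R_L cells and 1930 in parental cells, 2.58-fold lower, with -0.63 on its second probe set.

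Among 45 measured effectors, 2 were at least 2-fold higher and 2 lower. Myo5c, an epithelial myosin V that binds Rab8 and Rab10, had 444 in 4T1-3R_L cells and 153 in parental cells, 2.90-fold higher. Rilpl1, which binds phosphorylated Rab8 and Rab10, had 1004 in 4T1-3R_L cells and 399 in parental cells, 2.52-fold higher. That value came from an _x_at probe set, and the second probe set of Rilpl1 gave 0.75. Micall1, which links Rab8 and Rab35 to recycling tubules, had 694 in 4T1-3R_L cells and 1669 in parental cells, 2.41-fold lower. Rab11fip4, which binds Rab11, had 19.6 in 4T1-3R_L cells and 216 in parental cells, at least 2.38-fold lower, whereas the other probe set gave 0.58. The other Rab11 effectors, chosen after their values were seen, had -0.88 (Rab11fip2), -0.59 (Rab11fip3), 0.06 (Rab11fip1) and 0.07 (Rab11fip5), and the myosin Myo5b had -0.39.

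**Figure D4:**
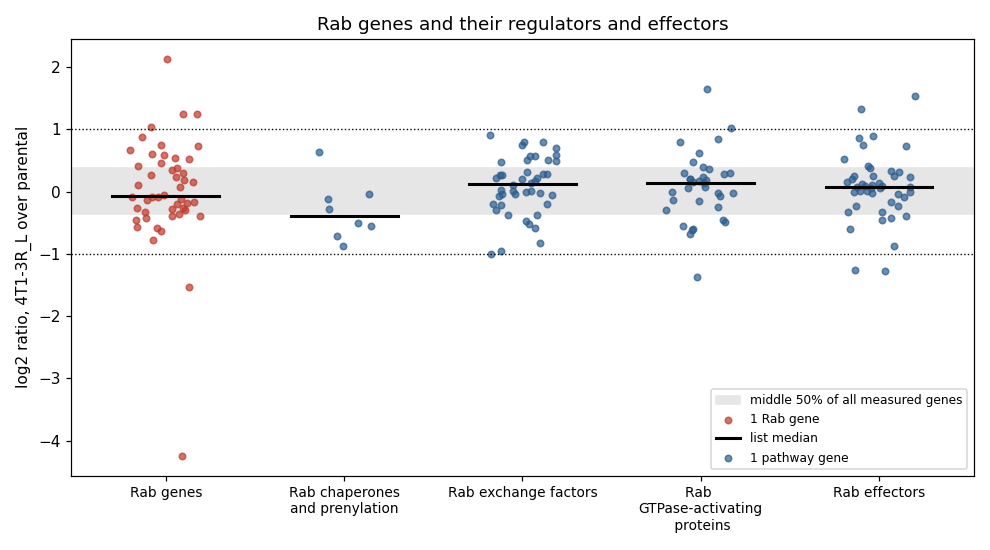
Log2 ratio (4T1-3R_L over parental) of the measured Rab genes and of measured genes of 4 lists of Rab regulators and effectors, 1 point per gene, with black bars at list medians, a grey band for the middle 50% of all measured genes and dotted lines at 2-fold. The chaperone and prenylation list has the lowest median, and Rab25 is the lowest point.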

How the data were processed

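Total RNA of the 2 cultures was converted to biotin-labelled cRNA and hybridised to Affymetrix expression arrays, per the labels' protocols. The deposited values are MAS5 signal intensities, per the submitters' processing notes, and their range shows a linear scale. Neither the MAS5 version nor its scaling target is stated in the labels. The mean trimmed by 2% at each end was 500.003 on both of the 2 arrays, so the authors had already scaled them to a common level and no scaling was added. The medians were 93.3 on the 4T1-3R_L array and 87.4 on the parental array, and 22805 and 22299 of 45101 probe sets reached the floor of 90.6. The number of arrays limits the precision.

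Gene names came from the annotation of the platform, and 34945 single-gene probe sets other than controls were used. Symbols were updated by Entrez identifier through the RefSeq table of GRCm38.p6, which also gave the order of genes and the promoter windows. Each gene was represented by its brightest probe set, by the mean of both floored log2 signals. A value under the floor on 1 array gives a lower bound. No test was run. The 11 alternatives were 4 scalings, floors at the 40th and 60th percentile, a pseudocount of 32 with and without the filter, and 3 ways of choosing probe sets. Under the second probe set choice, genes with 1 probe set kept that one. Of the 59 Rab genes 21 have 1 probe set. The steps were tested on simulated data. Python 3.11.15, pandas 2.3.3, numpy 2.4.6 and statsmodels 0.14.6 were used.

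The members, routes and lists were chosen with earlier results of these data known. The rule for named genes took Rab genes at least 2-fold apart on any probe set or with a log2 ratio of at least 0.5 in size. It also took those with an opposing probe set of that size, the member nearest to 0 in each route, and, per regulator list, the genes at least 2-fold apart and up to 3 of largest size. Other genes are given by value only.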

Additional observations from a re-analysis of the deposited data

How the results depend on the processing

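No paired analysis was possible because each group has 1 array. Of 55 counts and medians recomputed, 41 stayed close to the value reported (counts within 1.5 times, medians within 0.1). Scaling to the hybridisation controls gave 1 Rab gene at least 2-fold higher and 7 lower (4 and 2 as reported), a Rab median of -0.54, and 1 regulator or effector higher and 21 lower (4 and 4 as reported). By construction it lowers every ratio. The Rab median, -0.06 as reported, moved to 0.035 for the 40th percentile floor, 0.069 with a pseudocount and no filter, 0.12 with the median over probe sets, 0.10 with second probe sets and 0.082 with plain _at probe sets. The median over probe sets gave 2 Rab genes higher, 2 regulators or effectors higher and 2 lower, and second probe sets gave 0 higher regulators or effectors. The cause was not tested. With second probe sets, genes with 1 probe set kept that one. Of 320 recomputed log2 ratios of single Rab genes, 50 moved by 0.55 or more, the SD between first and second probe sets of a gene. Of these, 27 come from the control scaling and 23 from other settings. The control scaling shifts a ratio by 0.56 where both arrays reach the floor. It shifted Rab25, Rab20 and Rab7b, each under the floor on 1 array, by less. In at least 1 setting 12 of the 30 named Rab genes changed sign: Rab10, Rab1a, Rab23, Rab27b, Rab28, Rab2a, Rab3d, Rab40c, Rab4b, Rab5b, Rab8a and Rab8b. Rab27b reached 1.43 with second probe sets, against -0.36 as reported. The 6 genes at least 2-fold apart as reported kept their sign. Rab25, Rab32 and Rab6b kept a gap of 2-fold or more in the same direction in all 11 alternatives, Rab17 in 8 of 9, Rab31 in 8 of 11 and Rab7b in 7 of 11. Signals near the floor limit Rab7b, Rab30, Rab38 and Rab20.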

Other observations

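Rasef, a large atypical Rab (also called Rab45) that falls outside the naming rule, had a signal of 1.4 in 4T1-3R_L cells and 366 in parental cells. It was at least 4.04-fold lower, with 1 probe set on the array. The other 6 measured genes set beside it, Rabl2, Rabl3, Rabl6, Ift22, Ift27 and Ran, had log2 ratios between -0.11 and 0.32.

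The Arf and Arl genes and the Ras and Rap genes, chosen by symbol after the Rab values were seen, are set beside the 10.7% of all measured genes that were at least 2-fold apart. Of 14 measured Arf and Arl genes 0 were 2-fold apart, with a median of 0.18. Arf6, which acts in endosomal recycling, had 14219 in 4T1-3R_L cells and 8441 in parental cells (log2 ratio 0.75). Of 21 measured Ras and Rap genes 1 was at least 2-fold higher, Rerg, at least 2.12-fold with 192 in 4T1-3R_L cells and 14.3 in parental cells. Both counts are too small to set apart from that share.

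Rab44 lay under the floor on both arrays, with 57.8 in 4T1-3R_L cells and 5.9 in parental cells, and Rab3b had 88.8 and 30.8 in the same order.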
